A study of Mus musculus with 4 samples.

Results

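The Olfr1348 population consists of the mature olfactory sensory neurons (OSNs) whose most expressed odorant receptor is Olfr1348. Its members were the neurons with that receptor identity in the deposited cell table, 79 of 9791 neurons with an identity, and all other genes were then described in them. They came from the main olfactory epithelium of 4 male C57BL/6 mice aged 8 weeks, at rest and with no treatment, from which live nucleated cells were sorted before single-cell RNA-seq with 1 library per mouse. Mice 1 to 4 contributed 22, 19, 10 and 28 of the neurons, and the mouse was the replicate throughout (n = 4).

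An odorant receptor is a G protein-coupled receptor, and each mature OSN expresses a single receptor gene out of a very large family. Odorant binding raises cyclic AMP through the olfactory G protein and adenylyl cyclase, which opens a cation channel and then a chloride channel in the cilia. Neurons with the same receptor send their axons to the same few glomeruli of the olfactory bulb, and they are known to differ from neurons with other receptors in a set of non-receptor genes such as adhesion and guidance molecules. The question addressed here was which non-receptor genes set the Olfr1348 neurons apart from other neurons of their own transcriptomic cluster.

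Olfr1348 (ENSMUSG00000093877) lies on the minus strand of chromosome 7 at 6499793 to 6508748 (GRCm38), within a short run of receptor genes. Olfr1347 lies 38 bases beyond its 3′ end on the same strand, at 6486944 to 6499755. Olfr1346 lies further on at 6467101 to 6478112 on the plus strand, and Olfr1349 and Olfr1350 lie on the other side, at 6513269 to 6522950 and at 6564841 to 6571401. The coding sequence of Olfr1348 is a single exon of 939 bases at 6501286 to 6502224. In a global alignment of coding sequences from GENCODE M21 it was 89.7% identical to that of Olfr1347 and 76.3% to that of Olfr1346, against 51.9% for Olfr1349 and 49% for Olfr1350. The same 60 aligned bases are shown for the 3 related receptors, from base 301 to 360 of the Olfr1348 coding sequence, because the populations of these neighbours are set beside the Olfr1348 neurons further on. Capitals mark bases that differ from Olfr1348.
Olfr1348: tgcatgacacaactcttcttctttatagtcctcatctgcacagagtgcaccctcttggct
Olfr1347: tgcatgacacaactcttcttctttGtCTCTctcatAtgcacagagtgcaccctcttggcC
Olfr1346: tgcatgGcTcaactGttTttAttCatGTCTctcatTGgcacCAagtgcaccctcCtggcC
Olfr1347 differed at 7 of these 60 bases and Olfr1346 at 16. Reads of such close paralogs can be hard to tell apart when they are counted. Olfr1347 was detected in 0 of the 79 Olfr1348 neurons and Olfr1348 in 0 of the 23 Olfr1347 neurons. Such detections are limited from above, because neurons with a second receptor over a set limit have no identity. Whether reads of these paralogs were counted to the wrong gene was not tested.

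The libraries held between 4746 and 6003 cell barcodes and between 23157467 and 32382702 unique molecular identifiers (UMIs), which count molecules and not amplified copies. The median Olfr1348 neuron had 5505.5, 4466, 7979 and 4409.5 UMIs in mice 1 to 4, and 78889 to 135692 UMIs were summed per mouse. Retained cells of any pair of libraries shared 1 to 7 barcodes. The Wilson intervals, the exact intervals and the limits set by a count of 0 that are given further on cover counting error only. Intervals of log2 changes rest instead on the standard error of the fit over mice.

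The population made up 0.783% ± 0.153 of the neurons with an identity (SD, n = 4 mice). The share was 0.818% in mouse 1, 0.811% in mouse 2, 0.569% in mouse 3 and 0.933% in mouse 4, with 95% Wilson intervals that reached from 0.309% to 1.35% over the 4 mice and overlapped. It held as many neurons as the Olfr1226 population. When mature OSNs were clustered by the authors without receptor genes, 78 of the 79 neurons fell into the cluster named Ventral and 1, in mouse 1, into the cluster named Cd55+ D. The Ventral cluster held 4522 further neurons with a receptor identity (1165, 1114, 740 and 1503 in mice 1 to 4), and these formed the comparison group. Acsm4, a marker of the dorsal zone, had 0 UMIs in the Olfr1348 neurons and 0.174 ± 0.0379 UMIs per 10000 UMIs in the other Ventral neurons. Nqo1, a further dorsal marker, had 0.368 ± 0.737 and 0.483 ± 0.0785. Its UMIs in the population all came from the neuron outside the Ventral cluster.

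The Olfr1348 transcript itself, which defined the population, stood at a median of 54, 49, 85 and 41 UMIs per neuron in mice 1 to 4, with a range of 17 to 136 over all 79 neurons. Per 10000 UMIs of the population it reached 94.3, which ranked 138 among the 353 receptor populations with at least 10 neurons, where the median was 82.6. Transcripts of all receptor genes together took a median of 0.951% ± 0.0426 of a neuron's UMIs in the population and 0.851% ± 0.0257 in the other Ventral neurons, higher in 4 of 4 mice (exact sign-flip test over mice, two-sided, p = 0.125, the smallest that 4 mice allow). The median UMI count per neuron was higher than in the comparison group in 3 of 4 mice (5590 ± 1670 and 5112 ± 1205, exact p = 0.25). The mitochondrial share was higher in 4 of 4 mice, with medians of 1.22%, 1.87%, 2.15% and 1.64% against 1.07%, 1.54%, 1.29% and 1.38% (exact p = 0.125), and its part in the results that follow was not tested. None of the 15 tested genes of the mitochondrial genome passed the test described next (edgeR, with 5 at an unadjusted p under 0.05), although some did against single populations, as given there.

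Between the Olfr1348 neurons and the other Ventral neurons, 113 of 10267 tested genes differed, 41 higher and 72 lower (edgeR quasi-likelihood test on UMI sums per mouse and group with the mouse as a block, Benjamini-Hochberg adjusted p under 0.05). This is a background of 1.1% of tested genes called, 0.399% higher and 0.701% lower. The split depended on the scaling: with median-of-ratios size factors 119 genes were called, 65 higher and 54 lower. Of the 113 genes, 110 moved the same way in 4 of 4 mice, and in 96 the 4 mice of the population did not overlap the 4 of the comparison group, which held for 10.2% of all tested genes. The count fell to 74 without mouse 4.

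**Figure D1:**
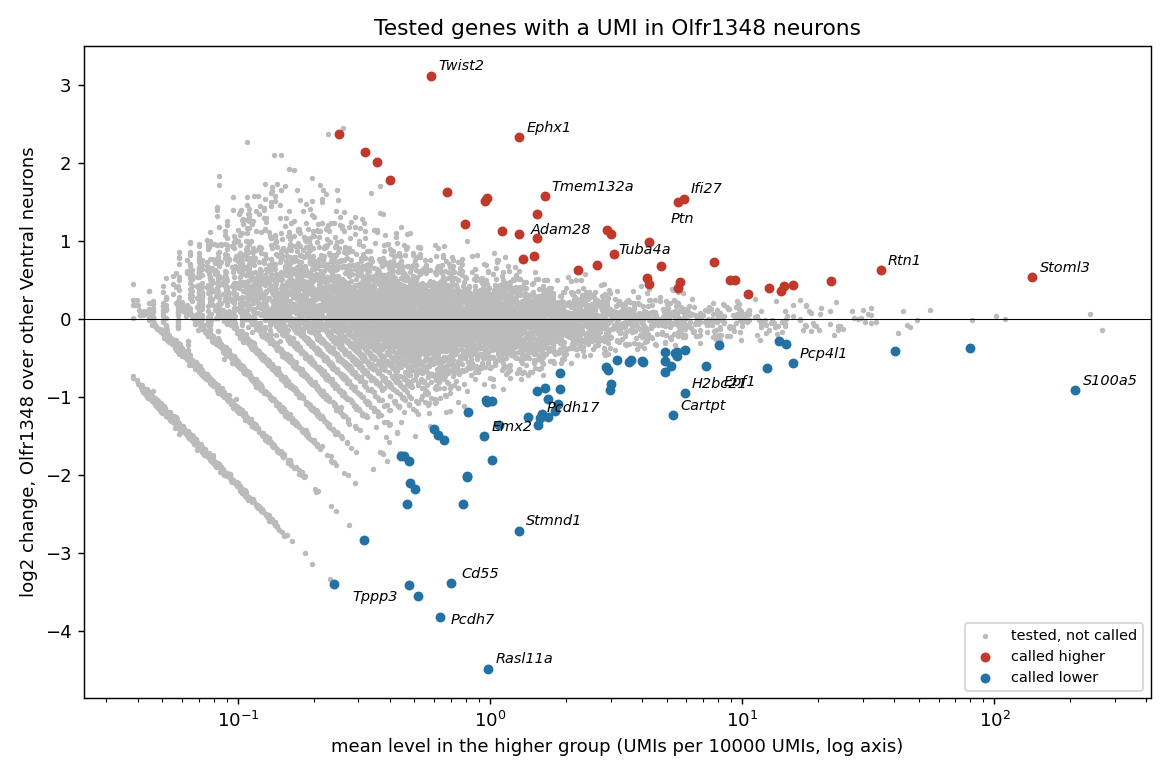
Log2 change of each tested gene with at least 1 UMI in the Olfr1348 neurons (vertical axis, Olfr1348 over other Ventral neurons) against its mean level in the higher group (horizontal log axis, UMIs per 10000 UMIs, n = 4 mice). Red points were called higher and blue points lower (edgeR), and the blue points at the bottom, such as Rasl11a and Pcdh7, rest on 2 UMIs in the population.

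Tuba4a and Adam28, chosen as markers of the population with earlier results of these data known, were both higher. Tuba4a (chromosome 1, 75214228 to 75219865) encodes an alpha-tubulin, a building block of microtubules. Its level was 3.17, 2.17, 3.04 and 3.68 UMIs per 10000 in the Olfr1348 neurons of mice 1 to 4 and 1.40, 1.26, 1.32 and 1.52 in the other Ventral neurons. Every mouse of the population lay above every mouse of the comparison group, with a log2 change of 1.09 ± 0.15 (SE, adjusted p = 9.97e-10, edgeR). Adam28 (chromosome 14, 68606027 to 68655842) encodes a membrane-anchored protease of the disintegrin and metalloproteinase family. It stood at 2.14, 3.11, 3.17 and 3.20 UMIs per 10000 against 1.28, 1.18, 1.31 and 1.24, a log2 change of 1.13 ± 0.16 (adjusted p = 9.27e-10, edgeR). Mouse 1 was the lowest for Adam28 and mouse 2 for Tuba4a, and the groups overlapped for neither gene.

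These levels came from many neurons and not from a few. With each neuron thinned to 3000 UMIs, which left out 5 Olfr1348 neurons and 796 others, Tuba4a was detected in 50%, 35.3%, 77.8% and 73.1% of the Olfr1348 neurons of mice 1 to 4 and in 24.8% ± 1.83 of the other Ventral neurons (SD, n = 4). Its share was 12.8% ± 1.72 in Mv2 microvillar cells and 15.6% ± 2.63 in sustentacular cells at the same depth. Adam28 was detected in 50%, 64.7%, 55.6% and 46.2% of the Olfr1348 neurons, in 26.8% ± 0.775 of the other Ventral neurons and in 0.618% ± 0.268 of Mv2 cells. Adam28 is not particular to neurons, since at this depth it was also detected in 36.8% ± 7.14 of HBC2 cells, and its level in HBC1 cells, 5.67 ± 0.708 UMIs per 10000, was above that of the Olfr1348 neurons. Both shares were higher in the population in 4 of 4 mice (exact sign-flip p = 0.125 for each). Without thinning, Tuba4a was detected in 80.9% ± 15.1 and Adam28 in 78.3% ± 8.48 of Olfr1348 neurons, with a median depth of 5050 UMIs, against 30.5% ± 2.40 and 35.6% ± 4.82 of the other Ventral neurons, with a median depth of 4689.5 UMIs.

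Neither gene was the highest in the Olfr1348 population. Among the 353 populations Tuba4a ranked 50 and Adam28 ranked 27, while the median population had 0.149 and 0.450 UMIs per 10000, and 133 and 105 populations had no UMI of the gene. Among the 165 populations found mostly in the Ventral cluster the ranks were 36 and 19. The other tubulins did not follow Tuba4a as a group. Of 12 tubulin genes 8 were tested, with Tuba4a higher, the neuronal beta-tubulin Tubb3 lower (3.50 ± 1.09 and 5.22 ± 0.111, log2 change -0.61 ± 0.12) and the other 6 not called, and Tuba1a had 49.4 and 48.1 UMIs per 10000. Of 15 Adam and Timp genes, 9 were tested and Adam28 was the only one called.

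**Figure D2:**
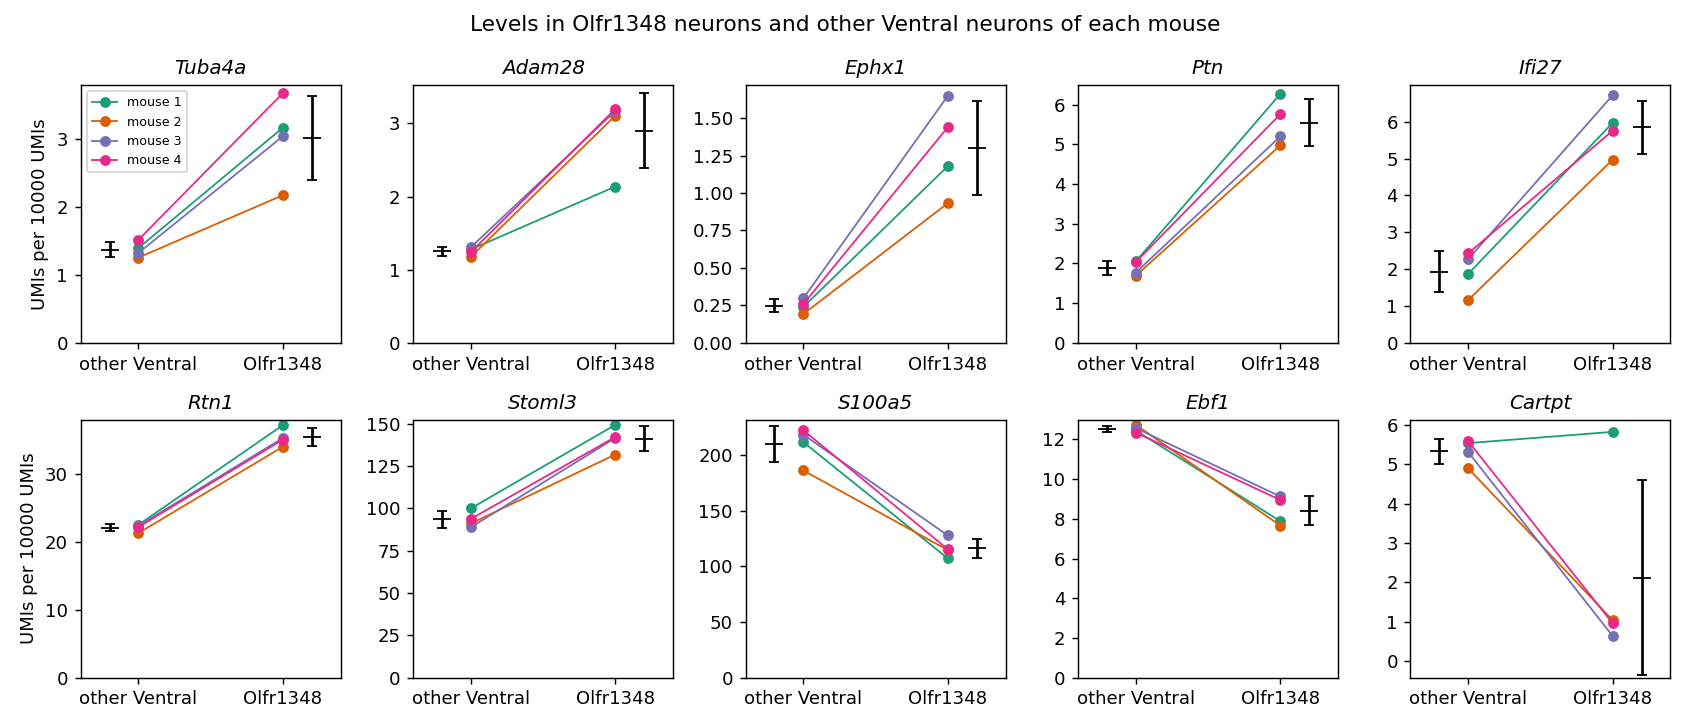
Levels of 10 genes in the other Ventral neurons and in the Olfr1348 neurons of each mouse (vertical axes, UMIs per 10000 UMIs), with a line joining the values of a mouse and black bars for the mean ± SD over 4 mice. The lines run the same way in all 4 mice except for Cartpt, where mouse 1 had 5.82 and the others 0.634 to 1.04.

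The 10 largest rises among the genes at 0.5 or more UMIs per 10000 were Twist2, Ephx1, Spon2, Tmem132a, Lmo2, Ifi27, Dnaic2, Ptn, Cpn1 and Gm20531. Twist2, a basic helix-loop-helix transcription factor, had 0.442, 0.207, 0.887 and 0.799 UMIs per 10000 in mice 1 to 4 and 0.0634 ± 0.0162 in the comparison group, a log2 change of 3.12 ± 0.47 (adjusted p = 1.23e-08, edgeR) that rests on 25 UMIs. Ephx1, the microsomal epoxide hydrolase that detoxifies reactive epoxides, had 1.18, 0.932, 1.65 and 1.44 against 0.247 ± 0.0437, a log2 change of 2.33 ± 0.27. Ephx1 was higher still in other cells of the epithelium, at 4.88 ± 0.987 in HBC1, 4.57 ± 1.39 in HBC2 and 2.94 ± 0.266 in sustentacular cells. Twist2 and Ephx1 both ranked 3 among the 353 receptor populations, and 271 of these populations had no UMI of Twist2.

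Ptn encodes pleiotrophin, a secreted heparin-binding growth factor, and was at 6.26, 4.97, 5.20 and 5.76 UMIs per 10000 against 1.89 ± 0.183 (log2 change 1.50 ± 0.12, adjusted p = 1.73e-31, edgeR). Ifi27, an interferon-inducible gene, was at 5.97, 4.97, 6.72 and 5.76 against 1.94 ± 0.565 (log2 change 1.54 ± 0.12). The values of the 4 mice lay close together for both genes, and no mouse overlapped the comparison group. Ifi27 ranked 7 of 353 populations. Ptn ranked 60 over all and 15 among the 165 mostly Ventral ones, and Olfr231 neurons had the highest level, 14.6 UMIs per 10000. In HBC1 cells Ptn stood at 11.6 ± 2.13.

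Of the other rises, Tmem132a had 0.590 UMIs per 10000 in mouse 1 and 1.44 to 2.38 in the other mice, so that mouse 1 overlapped the comparison group. Dnaic2, an intermediate chain of axonemal dynein, had 0.952 ± 0.107 and 0.311 ± 0.0515. Cpn1, the catalytic subunit of carboxypeptidase N, had 1.54 ± 0.332 and 0.584 ± 0.0727. Lmo2, a LIM-domain transcriptional cofactor, had 0.969 ± 0.265 and 0.318 ± 0.0227. The extracellular matrix protein gene Spon2 had 0.676 ± 0.329 and 0.223 ± 0.0629, and Gm20531, annotated as an antisense transcript, had 0.791 ± 0.167 and 0.321 ± 0.0183. The calls of Spon2, Gm20531, Dnaic2, Lmo2 and Tmem132a were lost in 3, 5, 2, 1 and 1 of 14 other settings of the processing.

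More abundant transcripts moved less but with little spread. Stoml3, a stomatin-family membrane protein of OSN cilia, was at 149, 132, 142 and 142 UMIs per 10000 in mice 1 to 4, above the 100, 91.1, 88.9 and 93.8 of the other Ventral neurons in every mouse (log2 change 0.53 ± 0.05, adjusted p = 2.44e-21, edgeR). Its call was lost in 1 of 14 other settings. Rtn1, a reticulon of the endoplasmic reticulum, was at 37.1, 34.0, 35.2 and 35.0 against 22.0 ± 0.546 (log2 change 0.62 ± 0.06), and it ranked 5 of 353 populations. S100a5, a calcium-binding protein whose transcript in OSNs is known to depend on activity, was at 107, 115, 128 and 115 against 212, 186, 218 and 222 (log2 change -0.92 ± 0.05, adjusted p = 1.41e-64, edgeR). It was the gene with the lowest p of all, although its level was not extreme among populations, at rank 232 of 353 with a median population at 192. H2bc21, at a lower level, had 3.09 ± 0.424 against 5.90 ± 0.483 without overlap (log2 change -0.96 ± 0.12, adjusted p = 5.64e-12, edgeR). Its call held in all 14 other settings. It was also called lower than in Olfr1226 and Olfr239 neurons, but not against Olfr1297 or Olfr1347 neurons.

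The 10 largest falls at that level were Avp, Pcdh9, Rasl11a, Pcdh7, Tppp3, Cd55, Stmnd1, Gm31557, Pcdh8 and 6430548M08Rik. They were low in the population in absolute terms, so their folds are limited by counting. No UMI of Avp or of Pcdh9 was found among 436268, which puts the population at least 8.39-fold and at least 7.22-fold lower than the pooled other Ventral neurons (against a limit of 3 counts over the group). Prom1, Rprm and Acsm4 were also called with 0 UMIs, at least 5.62-fold, 2.42-fold and 2.56-fold lower. Rasl11a, a small Ras-like GTPase, had 2 UMIs against 2239, a pooled ratio of 21.7 (exact 95% interval 6.00 to 179). Pcdh7 and Tppp3, the latter a tubulin polymerisation-promoting protein, had 2 UMIs each, with ratios of 13.8 (3.81 to 114) and 11.4 (3.14 to 93.99).

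A low level of these genes was common in other populations as well. Avp, the vasopressin precursor, was at 0 in 311 of 353 populations, and 94.6% of its UMIs among the other Ventral neurons came from 5 populations, with 44.8% from the 11 neurons of Olfr1508. Pcdh9 was at 0 in 91 populations and Pcdh7 in 128, and the median population had 0.370 and 0.141 UMIs per 10000. Rasl11a and Stmnd1, a gene with a stathmin domain, were less often absent: they were at 0 in 46 and 22 populations, and among the 165 mostly Ventral populations the Olfr1348 neurons ranked 9 and 11 from the lowest. Stmnd1 stood at 0.442, 0.207, 0 and 0.0799 UMIs per 10000 in mice 1 to 4 against 1.30 ± 0.0844.

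The single neuron outside the Ventral cluster carried several of the values that stood out in mouse 1. It held 15580 UMIs, 72 of them of Olfr1348 and none of another receptor, and 20 of Nqo1, an enzyme known as a marker of dorsal neurons. All 3 Cd55 UMIs, all 5 Pcdh8 UMIs and all 7 Gm31557 UMIs of the population came from it. Of the 106 Cartpt UMIs it held 68, and without it the Cartpt level of mouse 1 fell from 5.82 to 0.916 UMIs per 10000. Cartpt encodes the precursor of a neuropeptide, and its level was 1.04, 0.634 and 0.959 in mice 2 to 4 against 5.33 ± 0.315 in the other Ventral neurons. Its log2 change was -1.24 ± 0.13 with this neuron and -2.64 without it. The neuron had 0 UMIs of Tuba4a and 2 of Adam28, and with the 78 Ventral members alone 134 genes were called.

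Of 20 genes of the transduction cascade 19 were tested, 2 were higher (Stoml3 and Slc12a2) and 1 was lower (Ano2), with a median log2 change of -0.08 beside -0.09 over all tested genes. The summed level of the list was 454 to 479 UMIs per 10000 over the mice of the population and 399 to 414 in the other Ventral neurons, without overlap, and Stoml3 alone took 141 and 93.5 of the means of 465 and 407. Slc12a2, the chloride importer of OSNs, had 4.26 ± 0.538 and 3.00 ± 0.300 UMIs per 10000, and Ano2, the calcium-activated chloride channel, had 2.51 ± 0.279 and 3.55 ± 0.343. The calls of Slc12a2 and Ano2 were lost in 9 and 5 of the 14 other settings. Omp, the marker of mature OSNs, had 81.3 and 78.5, and the olfactory G protein Gnal 31.4 and 28.9, and neither was called.

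Among 14 regulators of OSN identity and receptor expression, 13 were tested and Ebf1 and Emx2 were lower, with a list median of -0.16. Ebf1, an early B-cell factor expressed throughout the OSN lineage, was at 7.89, 7.66, 9.13 and 8.95 UMIs per 10000 against 12.5, 12.7, 12.6 and 12.3, and no mouse overlapped (log2 change -0.64 ± 0.09, adjusted p = 9.98e-11, edgeR). Emx2, a homeobox factor needed for the expression of many receptor genes, was at 0.336 ± 0.159 against 0.945 ± 0.123 (log2 change -1.51 ± 0.33). Both stood at rank 12 from the lowest of the 165 mostly Ventral populations. Lhx2 and Ldb1 were not called. Of 7 genes that mark the position of an OSN in the epithelium, only Acsm4 was called against the cluster. That call was lost in 8 of 14 settings. Nqo1 and Cidea were called higher against the mean of 20 Ventral populations described further on. All 20 Nqo1 UMIs of the population came from the neuron of the Cd55+ D. cluster. Cidea was also called higher than in Olfr239 neurons and lower than in Olfr1226 neurons.

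Adhesion and axon guidance genes included several falls. Of 11 non-clustered protocadherins, adhesion molecules that differ between OSN populations, 8 were tested and 4 were lower (Pcdh7, Pcdh8, Pcdh9 and Pcdh17), with a list median of -1.73. Against the mean of 20 Ventral populations described further on, none of these 4 falls was called, since Pcdh8 and Pcdh17 missed the threshold and Pcdh7 and Pcdh9 did not pass the filter on low counts, and Pcdh10 was called higher. The call of Pcdh8 against the cluster was lost in 5 of 14 settings. Pcdh17 had 0.642 ± 0.174 UMIs per 10000 against 1.57 ± 0.227, while Pcdh10 had 1.28 and 1.10 UMIs per 10000, Pcdh1 0.487 and 0.352 and Pcdh19 0.650 and 0.476, none of them called. Of 28 guidance genes 24 were tested, with Epha5 higher and Tenm2 and Ncam1 lower. The ephrin receptor gene Epha5 stood at 9.36 ± 1.20 and 6.26 ± 0.472, the teneurin gene Tenm2 at 0.726 ± 0.143 and 1.60 ± 0.0703, and the neural adhesion molecule gene Ncam1 at 11.9 ± 1.05 and 13.9 ± 0.462. The call of Ncam1 was lost in 7 of 14 settings.

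Among 20 genes that the study uses to mark OSN clusters and populations, which is not independent evidence of direction since they were picked on these neurons, 19 were tested with 3 higher and 5 lower. Calcium-binding proteins gave 2 falls among 9 tested genes, S100a5 and Pcp4l1 (11.2 ± 1.78 and 15.9 ± 2.15 UMIs per 10000). The direction for Pcp4l1 turned with the comparison, as it was called higher in Olfr1348 neurons than in Olfr1226 neurons (log2 change 1.47 ± 0.14), in Olfr1297 neurons (1.77 ± 0.16) and in the mean of 20 Ventral populations described further on, and lower than in Olfr239 neurons (-0.62 ± 0.11) and in Olfr1347 neurons (-0.61 ± 0.16). Of 23 secreted factors 7 were tested, with Ptn higher and Cartpt lower, and 17 had no UMI in the population. The synaptic list gave 1 fall among 17 tested genes and the channel list 1 among 18, where Dlg2, a synaptic scaffold, had 0.852 ± 0.333 and 1.81 ± 0.240 and Scn3b, a sodium channel subunit, had 1.24 ± 0.320 and 1.89 ± 0.189. The call of Scn3b was lost in 8 of 14 settings and that of Dlg2 in 2. Microtubule regulators gave 1 fall among 21 tested genes, Tppp3. Against the cluster, no gene was called among 11 tested immediate early genes and 15 of the stress response of the endoplasmic reticulum. Nor was any called among 80 ribosomal protein genes and 82 nuclear genes of oxidative phosphorylation. In these lists, in that order, 1, 2, 3 and 4 genes had an unadjusted p under 0.05 (edgeR). The stress list summed to 33.3 to 37.3 UMIs per 10000 in the population and 29.7 to 32.6 in the other Ventral neurons. Its member Herpud1 was called higher against Olfr1226, Olfr239, Olfr1297 and the mean of 20 Ventral populations. Dnajb9 was called higher against Olfr1226, Olfr239 and that mean, and Hsp90b1 against Olfr239. Jund, an immediate early gene, was called lower against Olfr239 and Olfr1297.

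Markers of other cells of the epithelium were low in both groups. The summed level of 11 progenitor markers was 0 to 0.147 UMIs per 10000 over the 4 mice of the population and 0.0356 to 0.0682 in the other Ventral neurons, and 3 of them had a UMI in the population. For 14 markers of sustentacular and gland cells it was 0.207 to 1.18 (mean 0.490 ± 0.462) against 0.235 to 0.405 (0.303 ± 0.0726), and the 2 tested, Cyp2a5 and Gstm1, had log2 changes of 1.39 (adjusted p = 0.474, edgeR) and 0.68 (adjusted p = 0.876). Of the 14 markers, 6 had a UMI in the population, and the part of these transcripts in the results was not tested. The sum was, for 9 microvillar markers 0.311 to 0.634 against 0.342 to 0.377 and for 11 immune and blood markers 0.221 to 1.45 against 0.168 to 1.47. Markers of immature neurons, 12 in all, summed to 14.7 to 18.0 against 17.5 to 19.0. Of 11 tested immature-neuron markers, Tubb3 was the 1 called, lower. No progenitor marker entered the test. None was called of the 2 sustentacular and gland, 2 microvillar and 4 immune and blood markers that did.

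The neighbours on chromosome 7 gave populations of 17 (Olfr1346), 23 (Olfr1347), 20 (Olfr1349) and 12 neurons (Olfr1350). The level of Tuba4a was 3.72, 3.68, 3.99 and 4.27 UMIs per 10000 in the Olfr1347 neurons of mice 1 to 4, a range above every Olfr1348 value, of which the highest was 3.677. In Olfr1346 it was 1.60 ± 0.700 and in Olfr1349 1.14 ± 0.589, and Olfr1350 neurons had no UMI of it, so that Olfr1348 neurons were at least 5.44-fold higher. Adam28 had 2.90 ± 0.512 in Olfr1348, 2.96 ± 0.895 in Olfr1347, 1.25 ± 0.591 in Olfr1346 and 1.54 ± 1.62 in Olfr1349 neurons. Ephx1, pooled over mice, was at 1.28 in Olfr1348, 0.827 in Olfr1347 and 1.36 in Olfr1346 neurons, and Olfr1346 was the highest of all 353 populations. Twist2 was at 0.573 in Olfr1348 neurons and at 0.150 in Olfr1347 and 0.195 in Olfr1346 neurons, while Olfr1349 neurons were at 0.609, from 6 UMIs that all came from mouse 3.

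A test between Olfr1348 and Olfr1347 neurons, added after these values were seen, called 6 of 1382 tested genes (0.434%), all of them lower in Olfr1348 neurons (edgeR, with 67 genes at an unadjusted p under 0.05). They were S100a5 (log2 change -0.70 ± 0.16, adjusted p = 0.0226), Pcp4l1, the protocadherin Pcdh10, the adhesion molecule Kirrel2, and the mitochondrial mt-Rnr1 and mt-Nd4. The differences in Tuba4a and Adam28 did not pass, with log2 changes of -0.35 (95% interval -0.90 to 0.20) and -0.20 (-0.80 to 0.39), which leaves room for differences of that size. Mouse 2 had only 2 Olfr1347 neurons, and 0 genes were called without mouse 1, mouse 3 or mouse 4 or without the mouse as a block.

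**Figure D3:**
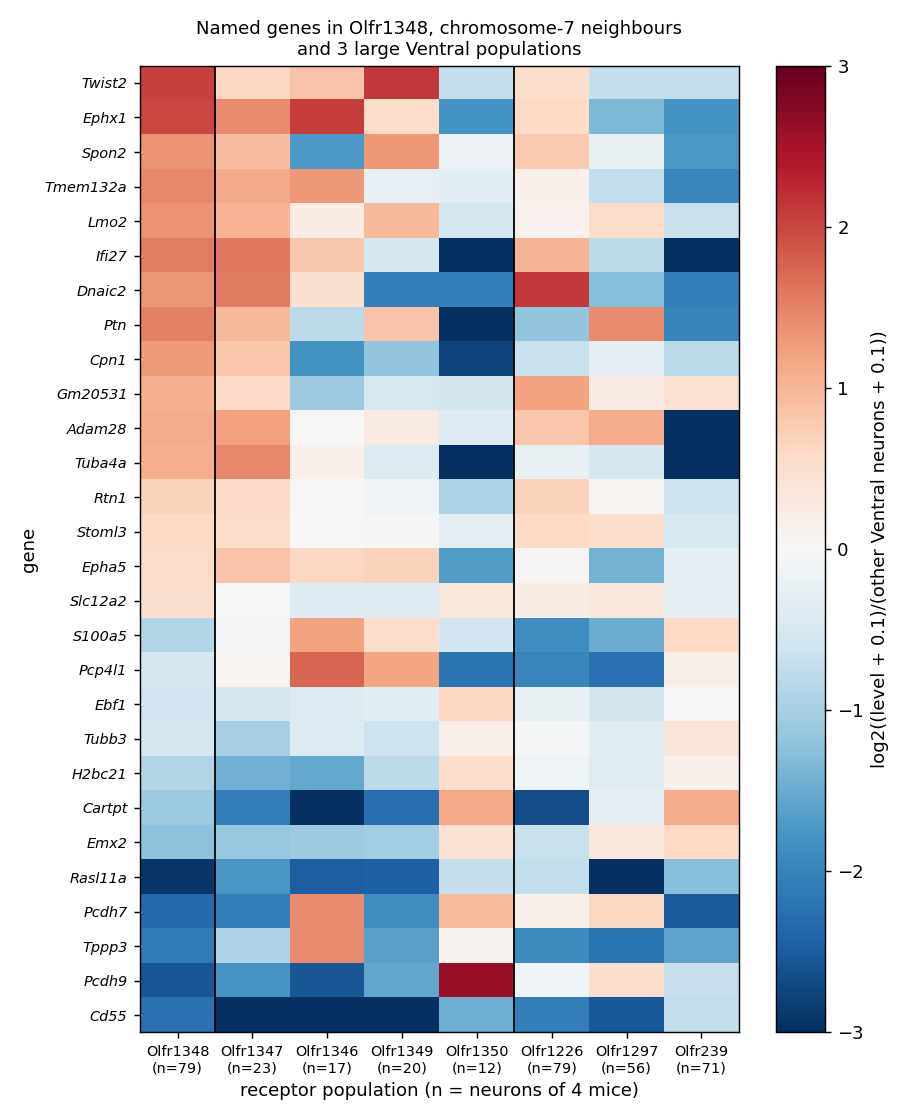
Level of 28 named genes in the Olfr1348 population, 4 chromosome-7 neighbours and 3 large Ventral populations, pooled over 4 mice and relative to the other Ventral neurons (colour, log2 ratio with 0.1 added to both levels, limited to ±3). Genes higher in Olfr1348 neurons are red at the top and those lower are blue below, and Tuba4a, Adam28 and Ifi27 are red in Olfr1347 and dark blue in Olfr239 neurons.

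The 3 largest other populations of the Ventral cluster with at least 5 neurons in each mouse differed from the Olfr1348 neurons to unequal extents. Of 2403 tested genes, 36 were called against Olfr1226 (1.5%, with 22 or 0.916% higher and 14 or 0.583% lower in Olfr1348 neurons), 55 against Olfr1297 (2.29%, with 40 or 1.66% higher and 15 or 0.624% lower) and 194 against Olfr239 (8.07%, with 115 or 4.79% higher and 79 or 3.29% lower, edgeR). These counts fell to 20 without mouse 2, 34 without mouse 4 and 129 without mouse 1, and that against Olfr1226 to 23 without the mouse as a block. Whether the 3 counts differ from each other was not tested. Tuba4a was higher in Olfr1348 neurons in all 3 comparisons. Its mean level was 1.18 ± 0.424 in Olfr1226 neurons and 0.935 ± 0.352 in Olfr1297 neurons, with log2 changes of 1.37 ± 0.24 and 1.70 ± 0.29. Olfr239 neurons had no Tuba4a UMI among 372804, so that Olfr1348 neurons were at least 38.2-fold higher.

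For Adam28 only the difference from Olfr239 neurons was called among the 3 populations. Olfr1226 and Olfr1297 neurons had 2.50 ± 0.859 and 2.77 ± 0.782 UMIs per 10000, and their difference from Olfr1348 neurons did not pass, with log2 changes of 0.26 (95% interval -0.14 to 0.66) and 0.02 (-0.41 to 0.46). Olfr239 neurons had a single Adam28 UMI, a pooled ratio of 106 (exact 95% interval 18.7 to 4219). Ptn was at 0.725 ± 0.286 in Olfr1226 and 0.370 ± 0.248 in Olfr239 neurons, both lower than the 5.55 ± 0.581 of Olfr1348 neurons in every mouse, and at 5.17 ± 1.22 in Olfr1297 neurons, where the log2 change was 0.11 (95% interval -0.22 to 0.44).

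S100a5 placed the Olfr1348 neurons between these populations. The level was 59.6 ± 16.5 in Olfr1226, 73.5 ± 6.90 in Olfr1297 and 315 ± 19.9 UMIs per 10000 in Olfr239 neurons, against 116 ± 8.58 in Olfr1348 neurons, and the log2 changes were 0.98 ± 0.09, 0.65 ± 0.09 and -1.44 ± 0.08. All 3 differences passed the test and the mice did not overlap. Stoml3 and Rtn1 were higher in Olfr1348 than in Olfr239 neurons, by 1.04 ± 0.08 and 1.33 ± 0.10 on the log2 scale, and their differences from Olfr1226 neurons were -0.02 ± 0.08 and -0.02 ± 0.09. Against Olfr1297 neurons Rtn1 was called higher (0.59 ± 0.10, adjusted p = 2.74e-06, edgeR) and Stoml3 was not called (0.07 ± 0.08). Calb2, a calcium-binding protein that marks other OSN clusters, was lower in Olfr1348 than in Olfr1226 neurons (log2 change -3.08 ± 0.18, adjusted p = 7.41e-38, edgeR) and was chosen for mention after its values were seen, as the gene with the lowest p in that comparison. It was also lower than in Olfr1297 neurons (-1.34 ± 0.25) and higher than in Olfr239 neurons (adjusted p = 3.01e-12, edgeR). Cartpt was lower than in Olfr1297 neurons (-0.84 ± 0.24) and in Olfr239 neurons (-2.26 ± 0.18). These folds include the neuron of the Cd55+ D. cluster, which held 68 of the 106 Cartpt UMIs, and were not fitted without it. Cartpt was called higher than in Olfr1226 neurons (1.62 ± 0.31), where the levels of mice 1 to 4 were 0.796, 0.733, 0.157 and 1.06 UMIs per 10000. Without that neuron, however, mouse 1 of the Olfr1348 population stood at 0.916, within that range.

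Transcripts of the mitochondrial genome moved in these comparisons too. Of 9 tested, 5 were called higher in Olfr1348 neurons against Olfr1226, 3 against Olfr1297 and 8 against Olfr239, with median log2 changes of 0.40, 0.35 and 0.73 over the 9, beside -0.01, -0.01 and 0.00 over all tested genes. In the comparison with Olfr1347 neurons, 2 of 9 were called lower, with a median of -0.41. None of 9 was called against the mean of 20 Ventral populations described next (edgeR, with 6 at an unadjusted p under 0.05). The part of these transcripts in the other differences was not tested. Of 17 tested transduction genes, 0 were called against Olfr1226 and against Olfr1297 (edgeR, with 1 at an unadjusted p under 0.05 in each) and 10 were higher against Olfr239, among them Gnal (log2 change 0.82 ± 0.10), the cyclic nucleotide-gated channel subunit Cnga2 (1.22 ± 0.15) and the adenylyl cyclase Adcy3 (0.88 ± 0.13). Against the mean of 20 Ventral populations described next, 4 of 16 were higher (Cnga2, Gnal, Slc12a2 and Stoml3) and 8 had an unadjusted p under 0.05.

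A further comparison was with the equal-weight mean of all 20 other mostly Ventral populations with at least 5 neurons per mouse. It called 81 of 1986 tested genes (4.08%, with 61 or 3.07% higher and 20 or 1.01% lower). Each population was summed over all its neurons, of which 52.3% (Olfr1222) to 100% (such as Olfr1264) lay in the Ventral cluster. The count fell to 46 without mouse 4. Since many of these genes were at 0 in some population, their fitted log averages give no usable fold. Only the calls are used here. They rest on the same log averages, in which populations near 0 weigh heavily, while the test against the cluster used pooled UMIs. The calls of the 2 tests are thus not alike in measure, and the part of this in their differences was not tested. Tuba4a, Adam28, Ptn, Ifi27, Cpn1, Rtn1, Stoml3, Epha5 and Slc12a2 were called higher. S100a5, Ebf1, Emx2, H2bc21, Stmnd1, Tubb3 and 6430548M08Rik were called lower. Pcp4l1 was called higher here, opposite to its call against the pooled cluster, and Calb2 and Pcdh10 were also called higher. Of 29 named genes that entered this test, Rasl11a, Tppp3 and Cd55 had a standard error over 2 on the log2 scale, a limit set after the values were seen, and could not have been called. Of the other 26, 16 were called in the direction of the cluster comparison, 1 in the opposite direction and 9 were not called. These 9 were Tenm2, Pcdh8, Pcdh17, Ncam1, Dlg2, Ano2, Scn3b, Cartpt and Gm31557, all lower against the cluster. Their falls were not shown against the average population. Twist2, Ephx1, Spon2, Tmem132a, Lmo2, Dnaic2 and Gm20531 did not pass the filter on low counts, so their rises were not tested here. Acsm4, Avp, Pcdh7 and Pcdh9 did not pass it either. The neuron of the Cd55+ D. cluster held 68 of the 106 Cartpt UMIs and all those of Pcdh8 and Gm31557. This comparison was not fitted without that neuron. Of the 113 genes called against the whole Ventral cluster 83 entered the test, 78 of them with a standard error under that limit, and 47 were called in this comparison, which is 41.6% of the first list and 58% of the second.

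**Figure D4:**
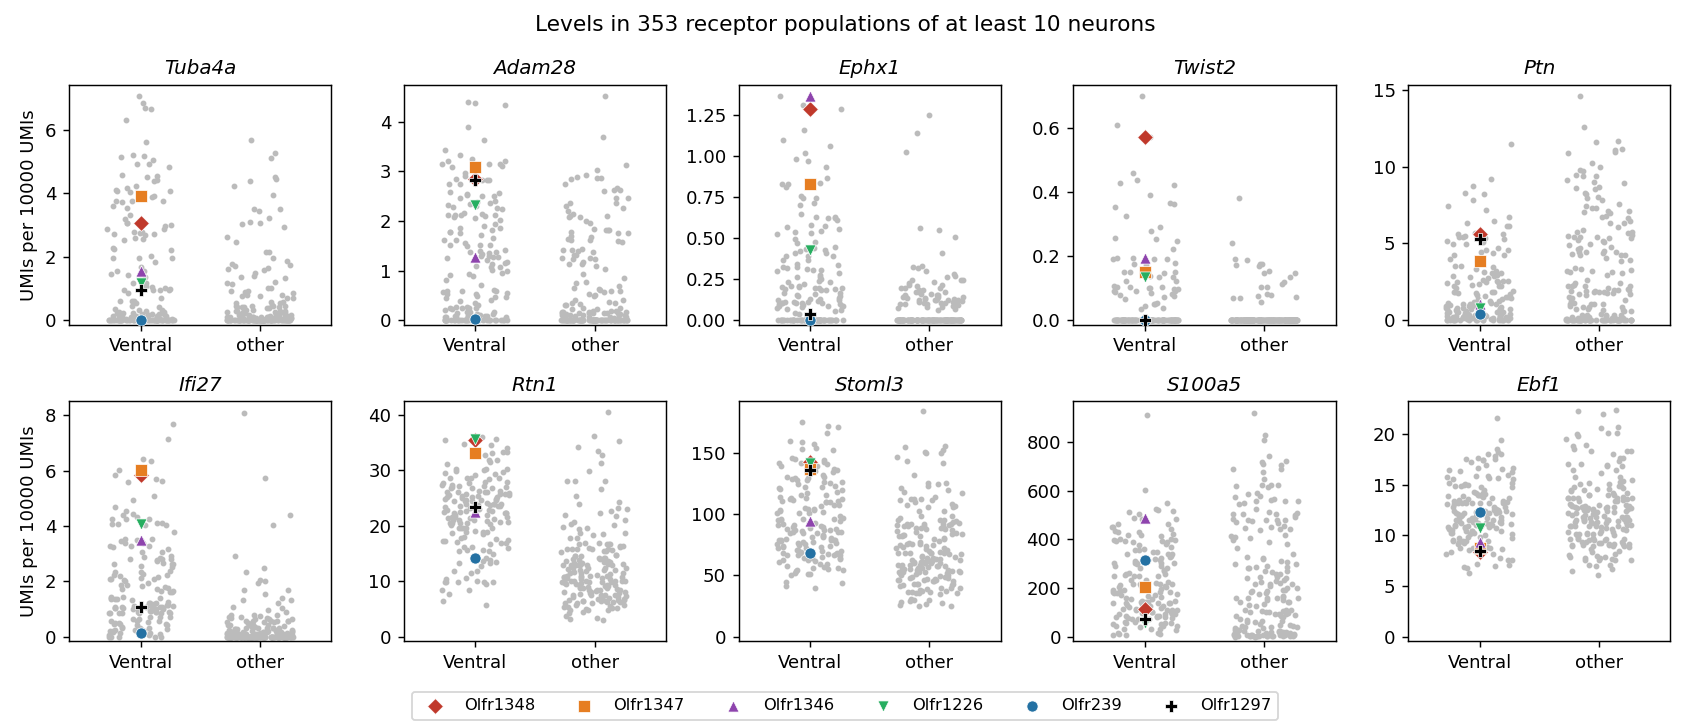
Levels of 10 genes in the 353 receptor populations of at least 10 neurons (vertical axes, UMIs per 10000 UMIs pooled over 4 mice), with populations found mostly in the Ventral cluster on the left of each panel and the rest on the right. Coloured symbols mark 6 populations, and Olfr1348 (red diamond) lies near the top for Ephx1, Twist2 and Rtn1 and in the lower part of the range for S100a5 and Ebf1.

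A further receptor transcript was detected in 33 of the 79 neurons, which is limited from above because neurons with a second receptor over a set limit have no identity. The 41 detections concerned 16 receptors, 33 of the detections were single UMIs, and 8 neurons had 2 or more UMIs of a further receptor. A single gene accounted for most of them. Olfr1372-ps1 (ENSMUSG00000108218), a transcribed receptor pseudogene on chromosome 11 at 52154722 to 52168159, was found in 23 neurons with 33 UMIs in all and at most 3 in a neuron, and it was chosen for description after its values were seen. The next receptor, Olfr365, was found in 3 neurons.

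Olfr1372-ps1 was detected in 13.6%, 21.1%, 60% and 35.7% of the Olfr1348 neurons of mice 1 to 4 and in 10.8%, 9.16%, 12.6% and 8.92% of the other Ventral neurons. In neurons thinned to 3000 UMIs the shares were 4.55%, 11.8%, 33.3% and 38.5% against 6.50% ± 0.341, so that mouse 1 lay below the comparison group and the other mice above it (exact sign-flip p = 0.25). Without thinning it was found in 0.170% of Mv2 cells and 0.202% of neurons of the Dorsal cluster, with median depths of 5081 and 4616 UMIs. Other ventral clusters had it too, with 10.3% of Cd36+ V. and 8.16% of Dlg2+ V. neurons (median depths 4873 and 5246 UMIs). In iOSN1 cells the share was 5.66% at a median depth of 6830.5 UMIs. Among the chromosome-7 neighbours it was found in 14 of 23 Olfr1347 neurons, the highest share of the 353 populations, where Olfr1348 ranked 29, in 10 of 17 Olfr1346 neurons, in 4 of 20 Olfr1349 neurons and in 0 of 12 Olfr1350 neurons. It was also found in 14 of 79 Olfr1226 neurons and in 0 of 71 Olfr239 and 0 of 56 Olfr1297 neurons, and 131 of the 353 populations had at least 1 UMI of it.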

How the data were processed

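The authors counted reads with Cell Ranger 6.0.1 against GRCm38 with redrawn receptor gene ends. Each deposited matrix gives unnormalised UMI counts for every gene in every barcode, and the deposited cell table holds UMI and gene counts, the percent of mitochondrial UMIs, clusters and receptor identities, all used as given. The 1430 receptor genes were left out of tests. UMI sums per mouse and group were tested in edgeR 4.0.16 (R 4.3.3, TMM, filterByExpr, quasi-likelihood, adjusted p under 0.05) with the mouse, whose groups come from 1 animal and library, as a block. P-values rest on a spread between mice estimated largely over genes together, so the spread of a single gene weighs little in them. Cartpt, where mouse 1 overlapped the comparison group, still had a SE of 0.13 on the log2 scale. Levels are UMIs per 10000 UMIs of a group, receptor genes included in the total. Only the edgeR test against the other Ventral neurons was tried on simulated data, in its main setting.

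Scrublet (scanpy 1.11.5) called 3, 2, 4 and 36 doublets, 0.0351% to 0.600% of barcodes beside an expected 5%, and these calls were not used. The top 4% of scores, left out as an alternative, held 0 Olfr1348 neurons. Alternatives were size factors, DESeq2 1.42.0, no filter, no block, each mouse left out, other members or comparison groups and thinning.

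Genes named were the 2 markers, the 10 largest rises and falls among called genes with the same direction in 4 mice and at least 0.5 UMIs per 10000 in the higher group, the next 5 by p (S100a5, Stoml3, Rtn1, Cartpt and H2bc21), and up to 4 called genes per list. The members and lists were chosen with earlier results of these data known.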

Additional observations from a re-analysis of the deposited data

Results flagged for a closer look

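Among 49 sets of 4 mouse values examined (named genes, neuron quality, detection shares and the population's share), 6 held a mouse far from the other 3 by Dixon's criterion, where chance gives about 1 in 20. That rate does not apply to Cd55, Pcdh8, Gm31557 and the detected receptors. There the other 3 mice were tied, so that any difference is flagged. Mouse 1 was the far one for Cartpt (5.82 UMIs per 10000), Cd55 (0.221), Pcdh8 (0.368) and Gm31557 (0.516), and the 1 neuron in the Cd55+ D. cluster held 68 of the 79 Cartpt UMIs of that mouse and every UMI of the other genes. Mouse 1 was also far below the others for Adam28, at 2.14 UMIs per 10000, and without that neuron it was at 2.25. The median number of detected receptors per neuron was 2 in mouse 3 and 1 in the others.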

How the results depend on the processing

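Of the 40 named genes, none changed direction under the 14 alternatives (12 for Avp, which had no value under the restriction to 1 receptor or thinning), and 18 stayed called in all of them, among them Tuba4a (highest adjusted p = 0.000517), Adam28 (0.0014), Twist2, Ephx1, Ptn, Ifi27, Rtn1, S100a5 and Ebf1. The other named genes missed the threshold in 1 to 9 alternatives, most often with only neurons of 1 detected receptor (17 genes), DESeq2 (12) or thinning (11). The 113 calls against the other Ventral neurons became 62 with DESeq2, 41 with only neurons of 1 detected receptor, 54 after thinning to 3000 UMIs and 249 against all other OSNs with an identity, and lay between 74 and 108 with a mouse left out. Thinning and the restriction to 1 receptor leave fewer UMIs and fewer neurons. The causes of the lower counts with these settings and with DESeq2 were not tested. Without the replicate block the counts were 79 against the cluster, 23 against Olfr1226 and 0 against Olfr1347, and 1 gene was called against Olfr1347 without a filter. Without a filter 223 genes were called against the mean of 20 populations. With a mouse left out the counts were 20 to 27 against Olfr1226, 129 to 149 against Olfr239, 34 to 49 against Olfr1297, 46 to 71 against the mean and 0 to 6 against Olfr1347. The block changed no other count by over 1.5 times. Leaving out the 4 chromosome-7 neighbours, an alternative added after seeing the data, gave 115 calls. Depth limits the genes with 0 to 3 UMIs in the population, 12 of the 113, for which only bounds or wide intervals are given.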
